A study of Mus musculus with 18 samples.

Results

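Genes of the mouse left ventricle whose expression moved in one direction in all 5 growth states of the study, relative to sedentary non-pregnant females, are described here. The states (15 arrays) were 7 days and 21 days of voluntary wheel running (7EX and 21EX, labelled 7Ex and 21Ex), mid-pregnancy at day 11 of gestation (MP), late pregnancy at days 18 to 19 (LP) and the first 12 hours after birth (0PP). The reference (3 arrays) was virgin, sedentary females at diestrus (NP/Sed, labelled Sed/NP). All mice were wild type C57Bl/6 females of 3 to 4 months, and each array carried left ventricular RNA pooled from 2 to 3 hearts, so the pool is the replicate and n = 3 arrays in each of the 6 groups. Nothing in the sources ties arrays of different groups to one another. The same 3 NP/Sed arrays enter all 5 differences, and a high or low value in them moves every difference the same way.

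Expression was measured on Affymetrix whole-genome mouse expression arrays, and all levels and differences are on the log2 scale, where a difference of 1 is a doubling of signal. Several probe sets, groups of short oligonucleotides, can stand for one gene. Levels are compared within a probe set only. A probe set passed where the mean of the 5 states, each weighted equally, differed from NP/Sed at a limma p, adjusted over all 45037 probe sets, under 0.05, and where all 5 state differences had the same sign. A gene was called where at least 1 probe set annotated to it alone passed. Of 18193 genes 821 were called. Called higher were 508 (2.79% of genes tested), and 319 (1.75%) were called lower, with 6 genes called both ways at different probe sets. Higher genes thus made up 61.4% of the calls, and 76.1% with arrays centred on their medians (786 higher and 247 lower). A further quantile normalization gave 445 higher and 376 lower. Cyber-T, the regularised test that the study used, gave 413 higher and 601 lower. The upward majority therefore depended on the test and the processing. Arrays gave no read depth, and the precision is limited by their number.

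The heart enlarges reversibly in pregnancy and in endurance exercise. This growth is called physiological because contractile function is kept. It is known for enlargement of existing cardiomyocytes, for added capillaries and for shifts in fuel use, and for little of the scarring and return of fetal muscle genes that mark disease. The hormones of pregnancy and the intermittent load of running differ, so genes that move alike in both settings bear on the question of what the 5 states share.

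Among the lists described below, those of macrophages (9 of 16), the matrix (5 of 31) and detoxification and antioxidant defence (4 of 20) had the most genes called higher and none called lower. Of all genes tested 2.79% were called higher and 1.75% lower. The lists were written with earlier results of these data known. They hold genes that the study had reported from these arrays, such as Ccl6, Ccl9, Adamts1, Adh1 and Fmo2. The list counts here and below are therefore a description. The median difference of the called genes was 0.322 for the higher and -0.44 for the lower ones, while that of all genes, each at its brightest probe set, was 0.0244. Of all probe sets 38.9% had one direction in all 5 differences, 8360 upward and 9159 downward, so one direction alone was common in differences that share a reference. A large part of the lower calls came from dim probe sets of genes whose brightest probe set did not pass, as described further on. At the brightest probe set 393 genes (2.16%) were called higher and only 65 (0.357%) lower.

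With the fold limit of the study's methods, a change of at least 75% in the pooled mean, 5 genes (0.0275%) remained higher and 31 (0.17%) lower. All 15 state arrays lay above all 3 NP/Sed arrays for 230 genes (1.26%) at the brightest probe set, and below them for 78 (0.429%). Among the called genes, 191 of the higher and 145 of the lower showed no such overlap at the passing probe set. That probe set was chosen by the same comparison and need not be the brightest, so these counts are a description. They are not set against the shares at the brightest probe set.

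For 11 genes each of the 5 comparisons alone passed an adjusted p of 0.05: 7 higher (0.0385%) and 4 lower (0.022%). The higher ones were Limd2, Myl1, Capg, Mfsd4a, Rtn4rl1, Upp1 and Bnip2. The lower ones were Apc, Gtf3c1, Ntmt1 and N4bp2l2.

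Myl1 encodes the alkali light chain of fast skeletal myosin, which the atrium and the developing heart also express. It read 9.87, 9.91 and 9.87 in the NP/Sed arrays and from 10.21 to 10.89, with a median of 10.60, in the 15 others. No state array came within the NP/Sed range, which was narrow. The pooled difference was 0.71 ± 0.09 (standard error; adjusted p = 0.00471), from 0.48 in 21EX to 0.88 in 7EX. Capg encodes a protein that caps the fast-growing ends of actin filaments and is abundant in macrophages. Its values were 5.72, 5.91 and 5.83 in NP/Sed and 6.09 to 6.76, median 6.48, in the states. It was higher by 0.65 ± 0.09 (adjusted p = 0.00471), with state differences of 0.50 (LP) to 0.80 (0PP), and its other probe set also passed (0.30).

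Limd2 encodes a small LIM-domain protein. Its values were 5.37, 5.66 and 5.67 in NP/Sed and 5.85 to 6.56, median 6.38, in the states, again without overlap. It rose by 0.76 ± 0.09 (adjusted p = 0.00259, the smallest of the 97 named genes), from 0.46 in LP to 0.93 in 21EX. The passing probe set is of a type whose oligonucleotides can match other transcripts (suffix x), and the other 3 probe sets of the gene differed by 0.03, 0.20 and -0.12 without passing. Upp1, the uridine phosphorylase that breaks down uridine, read 6.16, 6.23 and 6.29 in NP/Sed and 6.50 to 7.15 in the states. It rose by 0.50 ± 0.07 (adjusted p = 0.00584), and the difference in 0PP (0.77) was the largest of the 5. Mfsd4a, a membrane transporter of the major facilitator family, read 5.46, 5.11 and 5.46 in NP/Sed and 5.60 to 6.21 in the states, a rise of 0.63 ± 0.09 (adjusted p = 0.00584).

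Rtn4rl1 and Bnip2 passed at a probe set that was not their brightest. Rtn4rl1, a Nogo receptor homolog of neurons, read 5.15, 5.33 and 5.12 in NP/Sed and 5.53 to 6.11 in the states (0.61 ± 0.09, adjusted p = 0.00659). At its brightest probe set the difference was 0.19 (adjusted p = 0.139). Bnip2, a partner of BCL2 and adenovirus E1B proteins, rose by 0.48 ± 0.08 at a probe set with levels of 4.91 to 5.39 in NP/Sed and 5.54 to 5.81 in the states. Its brightest probe set, at 10.07 to 10.39 in NP/Sed, went the other way without passing (-0.23, adjusted p = 0.245).

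Among the 4 genes lower in each comparison, N4bp2l2, the NEDD4-binding protein 2-like 2, was the only one called at its brightest probe set, which was itself dim. Its values were 4.00, 3.98 and 3.98 in NP/Sed and 3.51 to 3.75 in the states (-0.37 ± 0.06, adjusted p = 0.00609). Apc, the scaffold of the complex that degrades beta-catenin, read 5.75, 6.15 and 5.54 in NP/Sed and 4.52 to 5.54, median 4.81, in the states. The pooled difference was -0.93 ± 0.13 (adjusted p = 0.00584), while the brightest probe set of the gene read 7.38 to 8.05 in NP/Sed and 7.84 to 8.20 in the states (0.24, adjusted p = 0.191). Gtf3c1, a subunit of RNA polymerase III factor TFIIIC, differed by -0.70 ± 0.11, and by 0.05 (adjusted p = 0.688) at the brightest probe set. Ntmt1, an N-terminal methyltransferase, differed by -0.54 ± 0.09, and by 0.12 (adjusted p = 0.352) there.

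**Figure D1:**
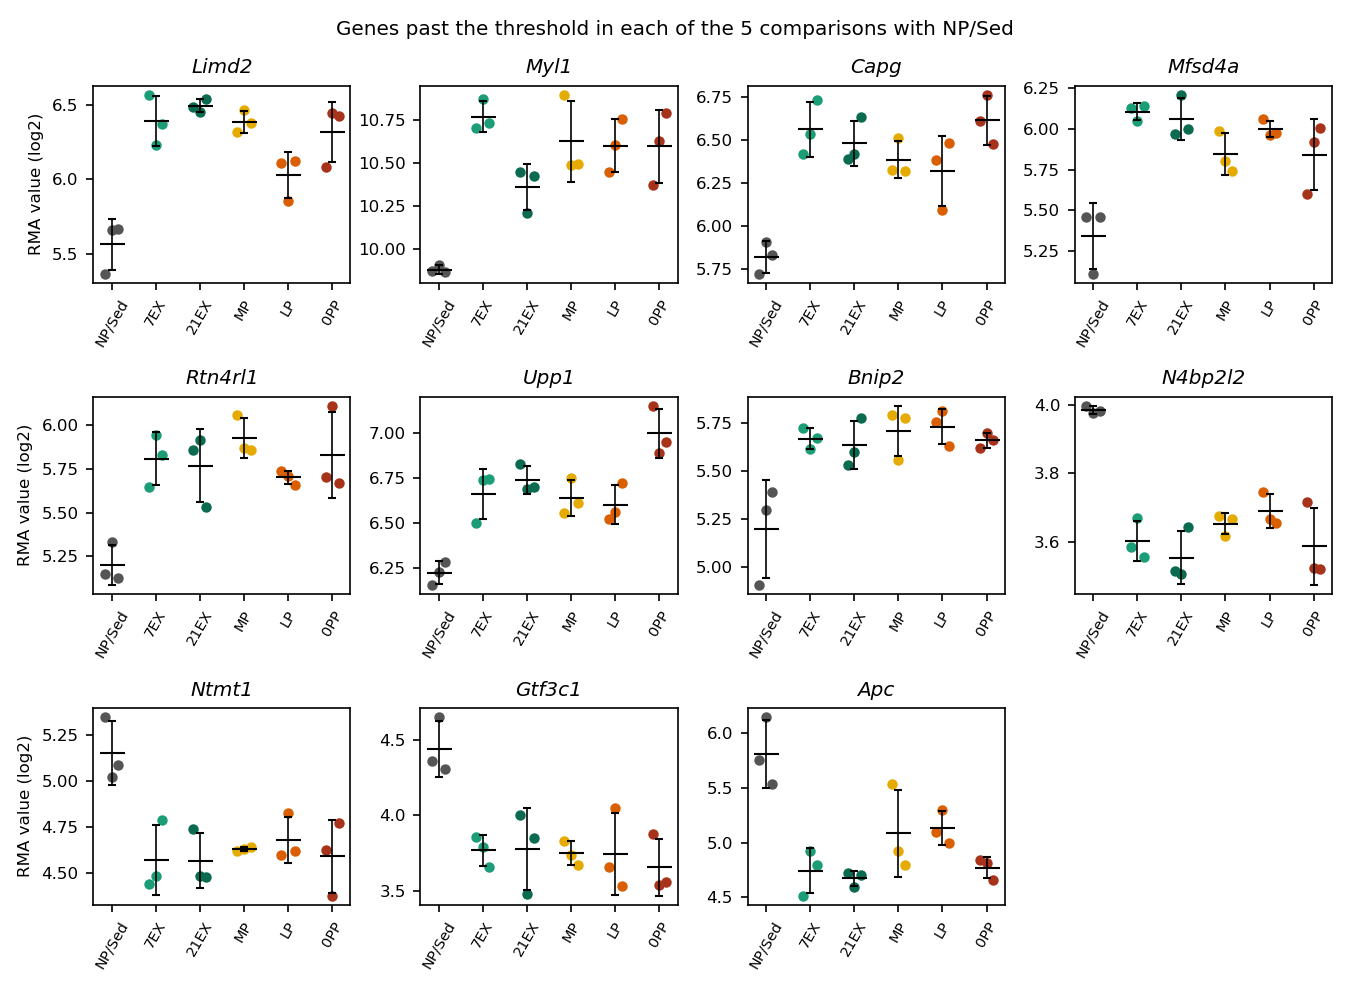
RMA values (log2, vertical axes) of the 18 arrays for the 11 genes past the threshold in each of the 5 comparisons, by group (horizontal axes). Points are arrays, and bars give the mean and SD of 3 arrays. Myl1 lay at 9.87 to 9.91 in NP/Sed and at 10.21 or above in every other array, and Apc at 5.54 or above in NP/Sed and at or below 5.54 elsewhere.

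All 11 kept the pooled call with any 1 array left out, except Gtf3c1 without NP/Sed-2. The stricter requirement was sensitive to most single arrays. Of the 11 genes, 1 still passed in each of the 5 comparisons without NP/Sed-1, NP/Sed-2 or MP-3, 2 without NP/Sed-3 or LP-1, and 3 without 21EX-2 or LP-3. Without any other 1 array 4 to 8 did.

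The largest rises at the brightest probe set were those of Car3 and Adipoq, both abundant in fat cells. Car3 encodes carbonic anhydrase III. It read 5.76, 7.41 and 6.58 in NP/Sed and 6.22 to 10.22, median 8.18, in the states, so the groups overlapped and NP/Sed itself spread widely. Its pooled difference was 1.56 ± 0.35 (adjusted p = 0.0277), with state differences of 0.99 in 7EX, 0.32 in 21EX, 2.72 in MP, 1.78 in LP and 1.98 in 0PP. The call was lost without NP/Sed-1 (1.15), NP/Sed-3 or 21EX-1. In limma the differences in 7EX and 21EX did not pass singly (adjusted p = 0.342 and 0.765). By quantitative PCR the study found Car3 higher in pregnancy and not altered in exercise. A shared rise of Car3 in exercise is therefore not established. Adipoq, which encodes the hormone adiponectin, read 3.27, 4.22 and 3.87 in NP/Sed and 3.94 to 7.42 in the states (1.28 ± 0.33, adjusted p = 0.0477). That call was lost with 14 of the 18 arrays left out in turn, and the lowest value was 1.02.

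Thrsp, a nuclear regulator of fatty acid synthesis, kept its call with any 1 array left out. It read 8.34, 8.33 and 7.97 in NP/Sed and 8.25 to 9.13 in the states. It rose by 0.57 ± 0.08 (adjusted p = 0.00584), from 0.27 in 0PP to 0.87 in MP, and a second probe set passed at 0.50. Of the 11 adipocyte genes measured these 3 were called higher and none lower. Lep and Retn, which encode the fat cell hormones leptin and resistin, and Fasn, the fatty acid synthase, differed by -0.02, 0.00 and 0.03 without passing. The mean level of the list was 5.50 to 5.80 in the NP/Sed arrays, 5.75 to 5.97 in the exercise arrays and 5.90 to 6.65 in MP, LP and 0PP. In tissue RNA, more cells of a type and more RNA per cell cannot be told apart.

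Fkbp5, a co-chaperone that glucocorticoids and progestins induce, read 7.25, 6.54 and 6.35 in NP/Sed and 6.59 to 8.63, median 7.84, in the states. It rose by 0.83 ± 0.17 in the pooled mean (adjusted p = 0.021), but the differences of 0.24 in 7EX and 0.06 in 21EX (standard error 0.22) did not pass singly (adjusted p = 0.715 and 0.919). It was the only one of 20 glucocorticoid and progesterone targets called. By quantitative PCR the study found Fkbp5 lower than in NP/Sed in both exercise groups and higher in pregnancy. A shared rise of Fkbp5 in exercise is therefore not established. The reason for the different direction was not tested. Adh1, the class I alcohol dehydrogenase that also acts on retinol, rose by 0.80 ± 0.16 (adjusted p = 0.0178). Adh1 read 7.05, 6.68 and 6.11 in NP/Sed and 6.66 to 8.42 in the states, with differences from 0.18 in 7EX to 1.53 in LP. Both calls were lost without NP/Sed-2 or NP/Sed-3.

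Slc12a5, the neuronal potassium-chloride cotransporter KCC2, rose by similar amounts in the 5 states. Its values were 5.05, 5.44 and 5.21 in NP/Sed and 5.52 to 6.50 in the states, without overlap (0.73 ± 0.13, adjusted p = 0.013), and the 5 differences ran from 0.59 to 0.80. Its call was lost without NP/Sed-3. Tnfrsf12a, the receptor for the cytokine TWEAK, passed at both of its probe sets (0.80 ± 0.16 and 0.75). The rise was widest in 0PP (1.40) and between 0.55 and 0.83 in the other states. Ptgds, the prostaglandin D2 synthase, rose by 0.76 ± 0.16 (adjusted p = 0.0208), with differences of 0.79 to 0.99 in 4 states and 0.16 in MP. Gbp6, an interferon-induced guanylate-binding protein, was higher by 0.93 ± 0.24 (adjusted p = 0.0465). One array, LP-3, read 11.12 and the next highest 9.78, and the call held with only 6 of the 18 arrays left out in turn. Bdh1, the mitochondrial enzyme that interconverts ketone bodies, rose by 0.99 ± 0.18 at its dimmer probe set (adjusted p = 0.0144) and by 0.45 at its brightest one (adjusted p = 0.0889).

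The starts of 3 of these genes are shown because Limd2 and Myl1 moved alike in all 5 states and Fkbp5 mainly in MP, LP and 0PP. Each line holds the 250 bases upstream of the annotated RefSeq start (GRCm38.p6, the most upstream start where there are several). All 3 lie on the minus strand and read 5′ to 3′: Limd2 at chr11:106160730-106160979, Myl1 at chr1:66945057-66945306 and Fkbp5 at chr17:28486150-28486399. Capitals mark matches, on either strand, to the E-box CACGTG, the cAMP response element TGACGTCA, the nuclear receptor motif AGGTCA, the glucocorticoid receptor motif AGAACA and the CCAAT box.
Limd2: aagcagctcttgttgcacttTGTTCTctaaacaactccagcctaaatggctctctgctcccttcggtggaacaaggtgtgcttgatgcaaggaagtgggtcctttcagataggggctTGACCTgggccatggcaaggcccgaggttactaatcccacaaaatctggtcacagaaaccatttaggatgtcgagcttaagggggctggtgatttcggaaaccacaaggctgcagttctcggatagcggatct
Myl1: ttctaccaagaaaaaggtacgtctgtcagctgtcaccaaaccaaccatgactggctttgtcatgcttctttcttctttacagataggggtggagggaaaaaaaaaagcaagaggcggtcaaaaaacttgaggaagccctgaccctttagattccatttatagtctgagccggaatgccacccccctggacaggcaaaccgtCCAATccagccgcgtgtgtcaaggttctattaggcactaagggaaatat
Fkbp5: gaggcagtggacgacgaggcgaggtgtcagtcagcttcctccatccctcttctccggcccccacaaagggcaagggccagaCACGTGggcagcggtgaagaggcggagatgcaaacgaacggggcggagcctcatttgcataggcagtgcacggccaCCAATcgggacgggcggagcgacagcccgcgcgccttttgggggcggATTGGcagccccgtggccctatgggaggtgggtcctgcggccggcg

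Limd2 held AGAACA and AGGTCA once each, both on the opposite strand. Myl1 held 1 CCAAT box, and Fkbp5 held an E-box and 2 CCAAT boxes but no AGAACA in this window. Over all genes there were 32851 such windows, of which 16.1% held AGAACA, 14% AGGTCA, 6.02% CACGTG, 1.55% TGACGTCA and 33.8% CCAAT. For the 521 windows of the called higher genes the shares were 14.2%, 12.5%, 7.68%, 1.92% and 33.6%. For the 361 windows of the called lower genes they were 9.14%, 12.2%, 7.76%, 2.49% and 36.3%. These are letter matches and not binding sites.

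Genes of macrophages made up the list with the most calls at the brightest probe set. Macrophages reside in the healthy ventricle, where they clear debris and take part in matrix turnover. Of 16 macrophage and monocyte genes 9 were called higher, each at the brightest probe set, and none was called lower. The median difference of the list was 0.412. The mean level of the 16 genes was 7.14 to 7.37 in the NP/Sed arrays and 7.41 to 7.89 in the 15 others, without overlap. This mean holds the 9 genes called by the same comparison, so it is a description. The mean of the chemokine and NF-kappa-B list did not overlap either (6.232 to 6.336 in NP/Sed and 6.348 to 7.105 in the states).

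Cd68, a lysosomal glycoprotein of phagocytes, read 6.06, 6.32 and 6.04 in NP/Sed and 6.38 to 6.91, median 6.79, in the states. It rose by 0.59 ± 0.09 (adjusted p = 0.00659), kept the call with any 1 array left out, and had state differences of 0.46 (LP) to 0.70 (0PP). The 3 chains of complement C1q, which resident macrophages make, rose together. C1qc read 8.43, 8.41 and 8.42 in NP/Sed and 8.50 to 9.16 in the states (0.42 ± 0.08, adjusted p = 0.0144), C1qb rose by 0.54 ± 0.11 and C1qa by 0.40. The calls of C1qb and C1qc were lost without NP/Sed-2 or NP/Sed-3. Adgre1 (the surface protein F4/80, 0.42), Cd163 (the hemoglobin scavenger receptor, 0.40), Lyz2 (lysozyme, 0.43) and the chemokines Ccl6 (0.69) and Ccl9 (0.64) also rose. Cd163 differed by only 0.01 in 7EX and 0.04 in 21EX, and its rise was 0.62 ± 0.07 larger in pregnancy than in exercise (adjusted p = 6.68e-05). The call of Ccl6 held with 5 of the 18 arrays left out in turn.

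The other 7 macrophage genes did not pass. Ms4a6d and Mrc1, the mannose receptor, differed by 0.64 and 0.35 (adjusted p = 0.0637 and 0.0531). Csf1r, the receptor that macrophages need to survive, differed by 0.12 (adjusted p = 0.32), and Ccr2, Itgam, Cx3cr1 and Fcgr1 by 0.08, 0.07, -0.08 and -0.08. Of other leukocyte markers, 1 of 10 lymphocyte genes, the common leukocyte antigen Ptprc (0.53 ± 0.11, adjusted p = 0.0194), and 0 of 6 neutrophil genes were called (1 was higher at an unadjusted limma p under 0.05, and 1 by Cyber-T, the regularised test that the study used). The array mean of the neutrophil genes reached 6.22 in LP and lay between 4.79 and 5.44 in the other groups.

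Lyve1, the hyaluronan receptor of lymphatic endothelium and of a subset of cardiac macrophages, rose by 0.70 ± 0.11 (adjusted p = 0.00659). It read 8.21, 7.98 and 7.75 in NP/Sed and 8.09 to 9.19 in the states, with differences of 0.25 and 0.36 in 7EX and 21EX and of 0.92 to 1.02 in MP, LP and 0PP. Prox1, the transcription factor that specifies lymphatic endothelium and is also expressed by cardiomyocytes, went the other way. It read 8.29, 8.24 and 7.91 in NP/Sed and 6.53 to 7.80, median 7.36, in the states, without overlap. It fell by 0.86 on the log2 scale (standard error 0.18, adjusted p = 0.0225), and a second probe set gave -0.86 as well. The call of Lyve1 was lost without NP/Sed-3, and that of Prox1 without any 1 NP/Sed array.

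The matrix list had 5 of 31 genes higher and none lower. Tnc, a matricellular protein of injured and growing tissue, rose by 0.46 ± 0.10 (adjusted p = 0.0216). Fn1 (fibronectin, 0.36), Sparc (a collagen-binding glycoprotein, 0.37), Adamts1 (a versican-cleaving protease, 0.55) and Cpxm2 (an inactive carboxypeptidase, 0.69) rose too. Sparc passed at a probe set that was not its brightest, where the difference was 0.29 (adjusted p = 0.0625), and it differed by only 0.02 in LP. Adamts1 differed by 0.04 in 7EX and 0.05 in 21EX, and its rise was 0.84 ± 0.11 larger in pregnancy (adjusted p = 0.000221). Mmp3 and Timp1, a matrix protease and an inhibitor of such proteases, differed by 0.66 and 0.68 without passing (adjusted p = 0.112 and 0.153), with array LP-3 at 7.08 and 8.24 above all others. None of 13 fibroblast markers was called. At an unadjusted limma p under 0.05, 2 were higher and none lower, and Cyber-T called 1 higher.

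Among genes of detoxification and antioxidant defence 4 of 20 were higher and none lower: Adh1, Cyp4b1 (a fatty acid and xenobiotic hydroxylase, 0.49 ± 0.09), Gpx3 (extracellular glutathione peroxidase, 0.43) and Fmo2 (a flavin monooxygenase). Fmo2 rose by 0.68 ± 0.13 at a probe set other than its brightest, which differed by -0.02. In the chemokine and NF-kappa-B list 3 of 19 were higher: Tnfrsf12a, the NF-kappa-B modulator Nfkbiz (0.65 ± 0.13) and the endothelial adhesion molecule Vcam1 (0.56 ± 0.13). Of the 15 interferon-stimulated genes 1, the ISG15-conjugating enzyme Ube2l6 (0.60 ± 0.15), was called, although 14 of 15 differed upward at the brightest probe set. The call of Ube2l6 held with 8 and that of Vcam1 with 11 of the 18 arrays left out in turn.

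Muscle genes moved in part. Of the 14 atrial and fetal muscle genes Myl1 and Nppb were called. Nppb, which encodes B-type natriuretic peptide, read 11.79, 11.49 and 11.92 in NP/Sed and 11.51 to 13.05 in the states, so the groups overlapped. It was higher by 0.58 ± 0.15 (adjusted p = 0.0457), from 0.03 in LP to 1.26 in 0PP, and the call held with only 5 of 18 arrays left out in turn. Acta1, skeletal alpha-actin, had a difference of 0.63 ± 0.17 that did not pass (adjusted p = 0.0579), from 0.09 in LP to 1.41 in 7EX. Myl4, the atrial light chain, differed by 0.76 ± 0.39 (adjusted p = 0.324), and Nppa and Myh7 by 0.12 and 0.34. Flnc, the muscle filamin of the Z-disc, rose by 0.26 ± 0.06 (adjusted p = 0.0312), from 0.15 in LP to 0.35 in 0PP, and passed at both of its probe sets. Its call was lost without any 1 NP/Sed array.

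The cardiomyocyte list served as a check of the tissue. Its mean level was 13.62 to 13.82 in all 18 arrays. At the brightest probe sets none of its 16 genes was called by limma (at an unadjusted p under 0.05, 2 were higher and 2 lower, and Cyber-T called 4 lower over all probe sets). Myh6, Tnnt2 and Ttn, which encode the main adult myosin heavy chain, troponin T and titin, were called lower at dimmer probe sets, by 0.70, 0.69 and 0.70. At the brightest ones they differed by -0.03, -0.02 and -0.20. For Tnnt2 this meant 9.88, 9.83 and 9.61 in NP/Sed and 8.71 to 9.67 in the states at one probe set, and 14.35 to 14.43 in all 18 arrays at the other. Whether probe sets as bright as those of Tnnt2 and Myh6 can still register a fall was not tested, so they do not show that none occurred. The remaining probe sets of Ttn, all brighter than the passing one, differed by -0.90, -0.63, -0.14 and 0.13. None of them passed (adjusted p = 0.0543, 0.0605, 0.224 and 0.42). The call of Myh6 held with 8 of the 18 arrays left out in turn.

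That split ran through the lower genes as a whole. Of the 319 genes called lower 254 (79.6%) were called at another probe set than the brightest, against 115 of 508 (22.6%) of the higher ones. Of all probe sets of 1 gene 52.1% were the brightest of their gene and 26.3% the only one. Of the passing lower probe sets 6.69% were the only one, and of the passing higher ones 31.9%. A gene with more probe sets has more chances of a call, so shares of lists with many such genes are not comparable with those of all genes. Over those 254 genes the median difference at the brightest probe set was -0.0145, and it was above 0 for 112. Their passing probe sets had a median level of 5.57 and their brightest ones of 8.49. Of the passing lower probe sets 61.6% were designed on an expressed sequence tag rather than on a full transcript record, compared with 36% of the passing higher ones and 49.3% of all. Where in its gene each of these probe sets lies was not examined, and its part in the result was not tested.

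Other probe sets of the called genes leaned the same way with smaller differences. Of 848 other probe sets of lower genes 587 were below 0 (median -0.0616) and 40 passed, and of 664 other probe sets of higher genes 434 were above 0 (median 0.0553) and 37 passed. Of the called genes with more than 1 probe set, 35 of 331 higher and 32 of 292 lower had at least 2 that passed. Mef2a, a transcription factor of muscle genes, and Ccdc141, a coiled-coil protein of muscle, each had 4 of 6 probe sets lower. For Mef2a these differed by -0.28 to -0.93 and the brightest by -0.18 (adjusted p = 0.0893). For Ccdc141 they differed by -0.42 to -1.14 and the brightest by -0.02.

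**Figure D2:**
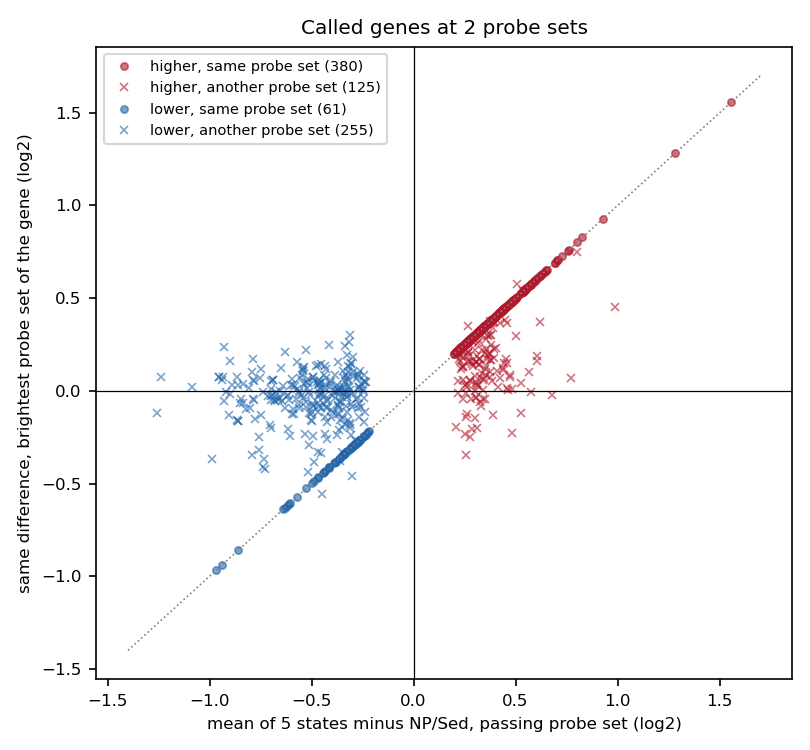
Pooled difference (mean of the 5 states minus NP/Sed, log2) of the called genes at the passing probe set with the smallest p (horizontal axis) and at the brightest probe set of the gene (vertical axis). Circles are genes whose passing probe set is the brightest and so lie on the dotted line of equality, and crosses are the others. The lower genes with a cross lie around 0 on the vertical axis, and 112 of the 254 called lower only at another probe set lie above it.

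The falls at the brightest probe set formed a short list. Gm19277, a predicted gene, read 6.91, 7.20 and 7.00 in NP/Sed and 5.41 to 6.64 in the states, without overlap (-0.97 ± 0.14, adjusted p = 0.00584), and kept the call with any 1 array left out. 6820431F20Rik, another transcript without a known protein, differed by -0.94 ± 0.21 and Gm19710 by -0.57 ± 0.13, the latter by -0.54 to -0.64 in the 5 states, and both calls were lost without any 1 NP/Sed array. Itgb6, a subunit of the integrin that activates TGF-beta, fell by 0.64 on the log2 scale (standard error 0.12, adjusted p = 0.0158), from -0.40 in 0PP to -1.17 in LP. Ramp1, a subunit of the receptor for the vasodilator CGRP, differed by -0.61 ± 0.11, Ifngr2, a chain of the interferon gamma receptor, by -0.53 ± 0.13, and Ppara, the nuclear receptor that drives fatty acid oxidation, by -0.47 ± 0.12 (adjusted p = 0.0115, 0.0419 and 0.0456). The calls of Itgb6 and Ramp1 were lost without NP/Sed-2 or NP/Sed-3, and that of Ifngr2 held with 9 of the 18 arrays left out in turn. Ppara differed most in 21EX (-0.78), and its call was lost with 12 of them left out.

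Bclaf1, a factor of RNA processing and transcription, read 9.21, 9.28 and 9.05 in NP/Sed and 8.20 to 9.18, median 8.53, in the states. It fell by 0.61 (standard error 0.10, adjusted p = 0.01), passed at 2 of 5 probe sets and kept the call unless NP/Sed-2 was left out. Of 26 splicing and RNA-binding genes 8 were called lower, and of 26 chromatin genes and coregulators 9, Bclaf1 included. None was called higher in either list. In the first list only Srrm1, a splicing coactivator (-0.43), and in the other only Bclaf1 were called at their brightest probe sets. Srsf3 and Mbnl1, regulators of splice-site choice, differed by -0.75 and -0.90 at the passing probe sets and by -0.13 and -0.13 at the brightest. The acetyltransferase Kat2b differed by -0.94 and 0.06, in that order.

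Ubiquitin and junction genes had the same form. Of 26 ubiquitin ligase and proteasome genes 6 were called lower, none at its brightest probe set. Nedd4, a ligase for membrane proteins, read 10.94, 10.84 and 10.67 in NP/Sed and 8.72 to 10.68 in the states at one probe set (-1.09 ± 0.26, adjusted p = 0.0368), and 10.79 to 11.20 in NP/Sed with a difference of 0.02 at its brightest. Fbxo32, the atrophy ligase atrogin, differed by -0.67 and -0.05. Its passing probe set was lower in 0PP as well (-0.72, adjusted p = 0.0697 in limma). By quantitative PCR the study found Fbxo32 higher after birth and lower in both exercise groups. The reason for the different direction after birth was not tested. Of 19 intercalated disc and adhesion genes 9 were called lower, 2 at the brightest probe set: Itgb6 and the connexin Gjc1 (-0.49). Gja1, the main ventricular connexin, differed by -0.86 at the passing probe set and by -0.16 (adjusted p = 0.129) at the brightest. Of 19 angiogenesis and hypoxia genes 8 were called lower, with only Vegfb at its brightest (-0.24), and the vasodilator peptide Adm was called higher (0.57 ± 0.11, adjusted p = 0.0144). Hif1a and Vegfa differed by -0.89 and -0.56 at passing probe sets and by 0.03 and -0.01 at the brightest.

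**Figure D3:**
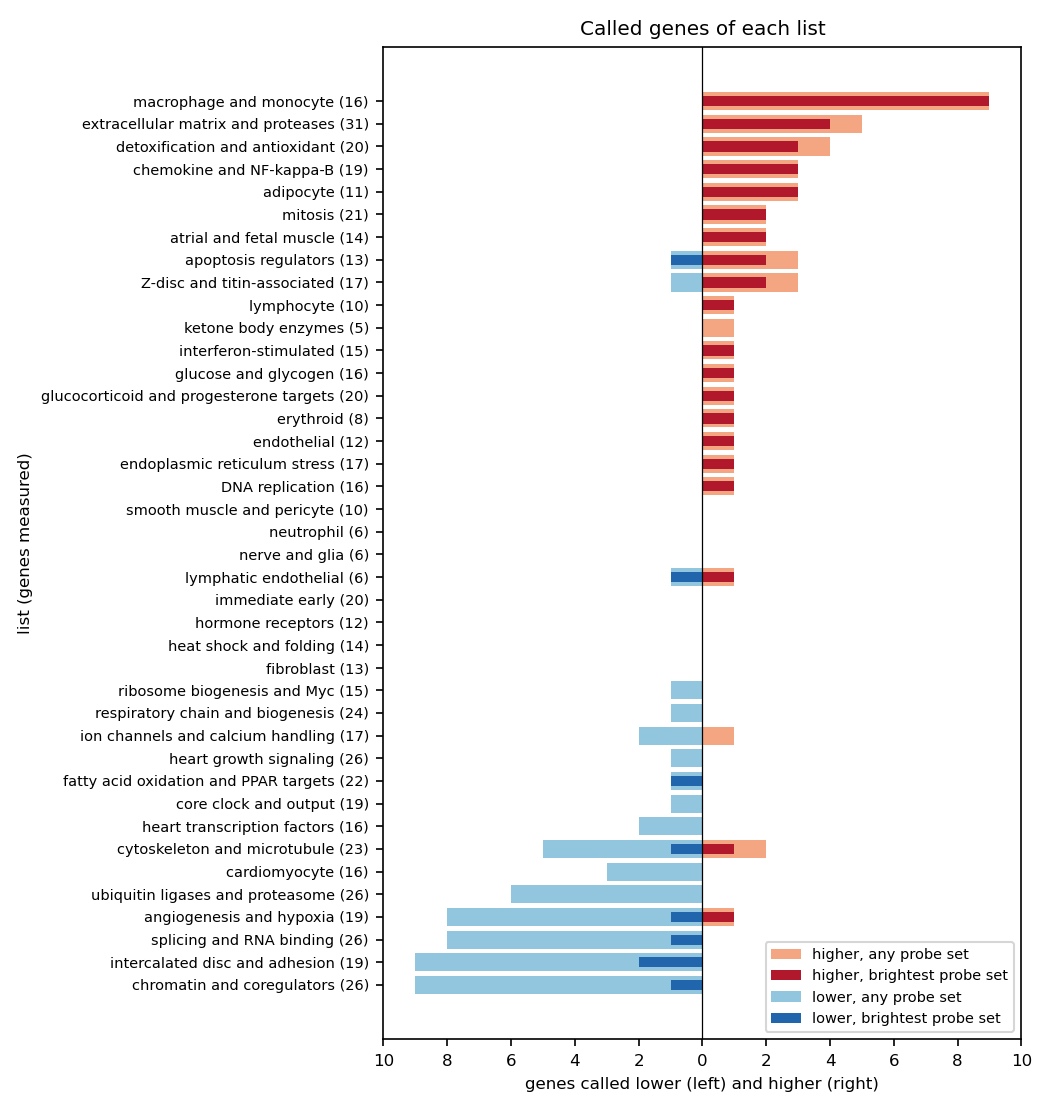
Number of genes called lower (left) and higher (right) in each of the 40 lists (vertical axis, with the number of genes measured). Wide pale bars count calls at any probe set, and narrow dark bars calls at the brightest probe set. The macrophage list has 9 higher at both counts, while the chromatin list has 9 lower at any probe set and 1 at the brightest.

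Smaller counts were found in other lists. Of 23 cytoskeleton and microtubule genes 2 were called higher and 5 lower, 1 each at the brightest probe set. Apaf1, the core of the apoptosome (0.44 ± 0.08, adjusted p = 0.0113), Bnip3, a mitochondrial mitophagy receptor (0.42 ± 0.09), and Cflar, a caspase-8 inhibitor (0.28), were higher among 13 apoptosis regulators, and Bclaf1 was lower. The inhibitors of apoptosis Xiap and Birc6 did not pass at any probe set. They differed by -0.09 and -0.04 at the brightest one, with both signs among the 5 states, and by -0.85 and -0.85 at a dimmer one each, downward in all 5 states (adjusted p = 0.0662 and 0.0513). Stbd1, which binds glycogen, rose by 0.64 ± 0.11 (adjusted p = 0.0119) as the only one of 16 glucose and glycogen genes. Aspm and Smc2, of the mitotic spindle and the condensin complex, were 2 of 21 mitosis genes higher (0.50 and 0.50), and the replicative helicase subunit Mcm6 1 of 16 replication genes (0.40). Of these calls, that of Smc2 held with 7 and that of Mcm6 with 4 of the 18 arrays left out in turn, and that of Mcm6 was lost with the replicate block and with the beta-actin covariate described below. Immediate early genes (0 of 20), heat shock genes (0 of 14) and hormone receptors (0 of 12) gave no call. At an unadjusted limma p under 0.05, 1, 0 and 0 of these were higher and 2, 0 and 3 lower, while Cyber-T called 1, 0 and 1 lower. No gene of the smooth muscle list (10 measured) or nerve list (6) was called either. At an unadjusted limma p under 0.05, 3 smooth muscle genes were lower and no nerve gene moved, and Cyber-T called none.

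The differences of the called genes varied in size among the 5 states. The genes were chosen by a mean that holds these differences, so what follows is a description. Median differences of the higher genes were 0.309 in 7EX, 0.349 in 21EX, 0.281 in MP, 0.292 in LP and 0.389 in 0PP. Those of the lower genes were -0.428, -0.525, -0.478, -0.336 and -0.406 in the same order. The largest difference of a higher gene fell most often in 0PP (189 of 505, counting each gene at one probe set) and that of a lower gene in 21EX (152 of 316). The smallest fell most often in MP for the higher (162) and in LP for the lower genes (171). Taken singly, 0PP passed for 291 of the higher genes and 7EX for 83, and 21EX passed for 213 of the lower genes and LP for 42. The share of all probe sets that passed in each of these comparisons is not given, so these counts do not set the called genes apart from the rest. For 178 higher and 157 lower genes the smallest of the 5 differences was at least 50% of the largest.

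An F-test among the 5 states does not use the NP/Sed arrays. It shares its residual variance with the rule, which also asks for one sign in all 5 states, so the counts among called genes are a description and are not set against those of all probe sets. By this test (limma, adjusted over all probe sets) 82 of the 821 called genes (9.99%) differed among states, 70 higher and 12 lower ones. Over all probe sets 1699 (3.77%) did. Between pregnancy (the mean of MP, LP and 0PP) and exercise (the mean of 7EX and 21EX) 69 called genes (8.4%) differed. Over all probe sets 1333 (2.96%) did. Of the higher genes 44 were further from NP/Sed in pregnancy and 15 in exercise, and of the lower genes 3 and 7. Fkbp5 (1.13 ± 0.14 higher in pregnancy, adjusted p = 0.000142), Lyve1 (0.66 ± 0.09), Fmo2 (0.78 ± 0.11) and Adh1 (0.73 ± 0.13) rose further in pregnancy. Aspm (-0.39 ± 0.07) and Smc2 (-0.41 ± 0.11) rose further in exercise, chiefly in 7EX, with 1.14 and 0.96 there and 0.10 and 0.13 in LP. For Myl1 (0.04 ± 0.08, adjusted p = 0.882), Slc12a5 (0.14 ± 0.11) and Cd68 (-0.04 ± 0.08) no difference was detected.

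The signal of the 3' minus the 5' control probe sets of beta-actin, a usual gauge of RNA intactness, averaged 1.21 (SD 0.13) in NP/Sed, 1.08 and 1.20 in 7EX and 21EX, and 1.33, 1.24 and 1.30 in MP, LP and 0PP. With this signal as a covariate 417 genes were higher and 254 lower in the pooled comparison. None of 668 called genes then passed between pregnancy and exercise in limma (113 had an unadjusted p under 0.05), and none passed in each of the 5 comparisons (260 genes with an unadjusted p under 0.05 in each). Cyber-T was not run with this covariate. Within the states the signal varied little (SD from 0.017 in MP to 0.056 in LP), so among the states it largely followed the group. The model with the covariate therefore cannot tell differences among the states, such as pregnancy against exercise, from RNA intactness. The NP/Sed arrays alone ran from 1.11 to 1.358, the highest value of any array. With the covariate 397 of the 508 higher and 242 of the 319 lower genes kept the pooled call. The part of RNA intactness in the pooled calls was not tested further. Averaged over the lower genes, arrays read 6.37 to 6.47 in NP/Sed and 5.69 to 6.17 in the states. Averaged over the higher genes they read 6.99 to 7.08 and 7.31 to 7.50. These averages follow from the choice of genes and are given as a description.

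How many genes were called depended on the reference arrays. Without NP/Sed-1, 506 genes were higher and 170 lower. Without NP/Sed-2 the counts were 62 and 28, and without NP/Sed-3 they were 40 and 57. Without MP-1 they were 651 and 621. Genes higher numbered 297 to 336 without 7EX-2, 7EX-3, MP-2, MP-3, LP-1, 0PP-2 or 0PP-3, and genes lower 189 to 208 without MP-3, LP-1 or 0PP-3. Of the original 508 higher genes 270, 56 and 38 were still called without NP/Sed-1, NP/Sed-2 and NP/Sed-3, and of the 319 lower ones 100, 24 and 48. Myl1, Capg, Limd2, Upp1, Mfsd4a, Cd68, Thrsp and Gm19277 were among the genes that kept the call each time.

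**Figure D4:**
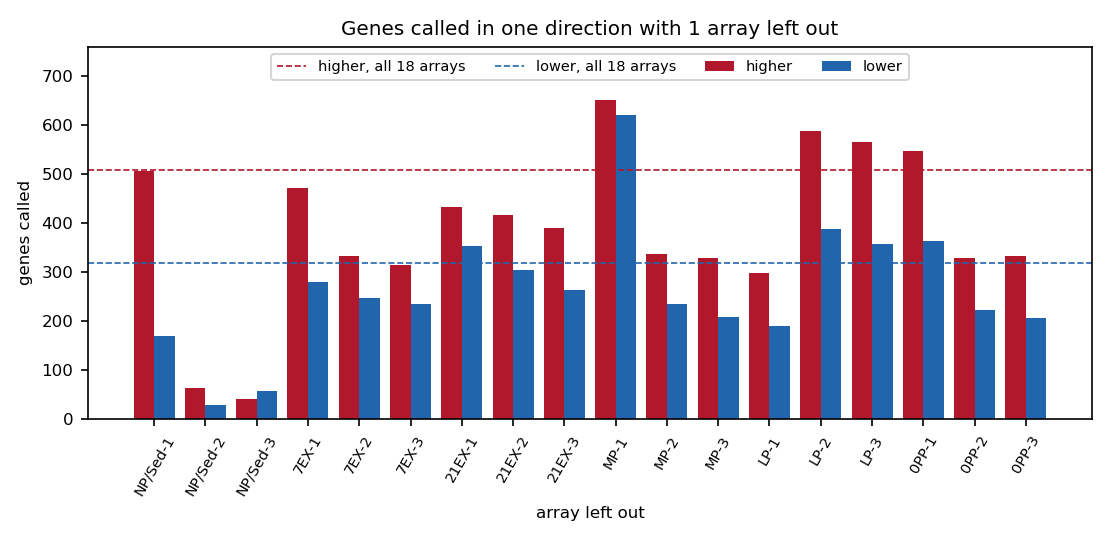
Number of genes called higher and lower (vertical axis) with each of the 18 arrays left out in turn (horizontal axis). Dashed lines mark the counts with all 18 arrays, 508 and 319. The bars without NP/Sed-2 (62 and 28) and NP/Sed-3 (40 and 57) are the shortest.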

How the data were processed

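Left ventricular RNA pools were hybridized to 18 arrays. The deposited values are log2 values, which the authors made with RMA over all arrays together. RMA subtracts background, gives every array the same distribution and reduces the oligonucleotides of a probe set to one value. No filter on low values was applied here. After 64 control probe sets were left out, 45037 were tested, of which 34945 are annotated to 1 gene, 932 to several and 9160 to none. Symbols of 34741 were updated by gene ID.

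One linear model over the 6 groups was fitted in limma 3.58.1 (R 4.3.3, 12 residual and 6.452 prior degrees of freedom) with two-sided tests and Benjamini-Hochberg adjustment over all probe sets. A called gene is shown at its passing probe set of smallest p. On simulated data without fold limit the rule recovered 11, 41, 49 and 48 of 50 probe sets changed by 0.25, 0.5, 1 and -1, and passed 9 of 44787 unchanged ones. Of 50 raised in LP alone 5 passed. The simulated noise was independent between probe sets and arrays. Shifts that many probe sets of one array share, such as one in an NP/Sed array, were absent. The simulated counts therefore do not give the rate of false calls in the data.

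Genes and the 40 lists were chosen with earlier results of these data known. Named were the 12 largest rises and falls at the brightest probe set, the 5 largest each at other probe sets, genes past the threshold in every comparison, up to 3 per list, and genes the study discusses. Other genes of a list were named after their values were seen. Alternatives tried were the fold limit, all 15 arrays as 1 group, Cyber-T (window 101, prior 10), an intensity trend, a minimum mean level (5), a further quantile normalization, centring on array medians, other choices of probe set, a replicate block, the beta-actin covariate, other weights, and each state or array left out. Promoter sequence is from RefSeq (GRCm38.p6).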

Additional observations from a re-analysis of the deposited data

Results flagged for a closer look

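Between pregnancy (the mean of MP, LP and 0PP) and exercise (the mean of 7EX and 21EX) a limma test of the difference itself passed an adjusted p of 0.05 for 12 of the 97 named genes. The values are pregnancy minus exercise on the log2 scale with 9 and 6 arrays. In the common response Bclaf1 had been called lower, Acta1 had not been called, and the other 10 had been called higher. Further from NP/Sed in pregnancy were Car3 (1.508 ± 0.288, adjusted p = 0.005487), Adipoq (1.238 ± 0.278, adjusted p = 0.01742), Fkbp5 (1.126 ± 0.143, adjusted p = 0.0001422), Fmo2 (0.7753 ± 0.108, adjusted p = 0.0003219), Adh1 (0.7319 ± 0.131, adjusted p = 0.003271), Lyve1 (0.6643 ± 0.0898, adjusted p = 0.0002563), Stbd1 (0.488 ± 0.0946, adjusted p = 0.006118) and Vcam1 (0.4251 ± 0.112, adjusted p = 0.04629). Further in exercise were Acta1 (-0.6822 ± 0.145, adjusted p = 0.01167), Smc2 (-0.4131 ± 0.105, adjusted p = 0.03853) and Aspm (-0.3932 ± 0.0732, adjusted p = 0.004478). Bclaf1 was lower in both settings and less so in pregnancy (0.4068 ± 0.0868, adjusted p = 0.01222). With the beta-actin 3' minus 5' signal as a covariate none of the called genes passed in limma, and 113 had an unadjusted p under 0.05. Among the growth states that signal largely followed the group, so the model cannot tell pregnancy against exercise from RNA intactness. The part of RNA intactness in these differences was not tested further.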

How the results depend on the processing

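Counts are given in the order genes higher, genes lower, genes past the threshold in each of the 5 comparisons, called genes that differ among states and called genes that differ between pregnancy and exercise, which were 508, 319, 11, 82 and 69. Counts not given stayed within 1.5 times these or were not run. The fold limit left 5, 31 and 1. All 15 arrays as 1 group gave 137 higher and 128 lower. Cyber-T gave 413 higher and 601 lower and, run for each state, 59 in each comparison. The intensity trend gave 18, 137 and 108 for the last 3 counts, and a mean of at least 5 gave 828 higher and then 21, 164 and 142. Median centring gave 786 higher, so that 76.1% of calls were higher in place of 61.4%. Averaging the probe sets of a gene gave 141 lower, and the brightest probe set only gave 65 lower and 6 in each comparison. The beta-actin covariate gave 0, 37 and 0 for the last 3. Without the state 21EX 335 were higher and 186 lower, without LP 515 were lower, and without 0PP 306 were higher. Replicate numbers did not pair the arrays: residual correlations of the 45 same-numbered pairs averaged -0.0272 (-0.269 to 0.179), and 6 of 18 arrays correlated best with their own number. The replicate block gave 317 higher, 4 in each comparison and 41 between pregnancy and exercise. With 1 array left out the counts ranged from 40 to 651, 28 to 621, 1 to 16, 13 to 139 and 8 to 87. The lowest of these came without NP/Sed-3 for genes higher, for those differing among states and for pregnancy against exercise, without NP/Sed-2 for genes lower, and without NP/Sed-2 or MP-3 for the third count. The direction turned at the brightest probe set only for Fmo2 (-0.02005), Ralgapa1 (0.07285), Nedd4 (0.01953), Rad23b (0.07455), Bnip2 (-0.2273), Apc (0.2353), Gtf3c1 (0.05386), Ntmt1 (0.1225), Cryab (-0.01144), Atrx (0.03069), Herc1 (0.03105) and Slc8a1 (-0.0818), and with the mean of probe sets for Bnip2 (-0.04843). The cause of these changes was not tested. How far dim probe sets lay above background was not examined.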
